A study of Mus musculus with 5 samples.

Results

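The cells described here were found among 692 single cells sorted as CD3+ T cells from mouse brain, and were chosen by a measured value: the mean deposited score of 6 genes, Cst3, Ctss, Ctsd, Ctsb, C1qb and Tyrobp, lay above 0.5 in each of them. The rule took 73 of the 692 cells, which is 10.5% (95% Wilson interval 8.47% to 13.1%). This interval treats cells as independent and leaves out the spread between samples, whose shares ran from 5.36% to 22.6%. Of these, 43 came from a single sample, untrained sample 2, and the other 30 were spread over the other 4 samples. All samples came from wildtype C57BL/6 mice with a photothrombotic stroke, in which light clots the vessels of a patch of cortex, and were taken from the injured hemisphere on day 14. Trained mice (3 samples) had running wheels from day 2, and untrained mice (2 samples) had no training. The labels do not say whether samples came from separate animals or from pooled ones, nor give age or sex. Cells carrying CD45, the surface protein of leukocytes, and CD3, the signalling complex of the T cell receptor, were sorted singly into 384-well plates for SORT-seq, a plate-based single-cell RNA-seq method.

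The genes of the rule belong to the endolysosomal and innate immune machinery of mononuclear phagocytes, the family of microglia, macrophages and monocytes. Cathepsins are proteases that degrade engulfed material in lysosomes, and cystatin C, the product of Cst3, is a secreted inhibitor of cysteine cathepsins that microglia make in large amounts. C1q starts the classical complement cascade and in the brain is made mainly by microglia. Tyrobp (DAP12) is an adaptor that carries signals from activating receptors of myeloid and natural killer cells, and apolipoprotein E, made by astrocytes and by microglia near damage, carries lipid. Cathepsins B and D are found in most cells, whereas C1qb is not a T cell gene.

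The deposited values are scores that can be negative, not counts, so depth is unknown and every difference below is a difference of scores, not of transcripts. In untrained sample 2, 1335 of the 2967 rows had their highest value at 2.52, and 1632 rows had a mean of 0 within 1e-06, as 0 rows did in each of the other 4 samples. The SD between cells had a median of 0.728 over its genes, and medians between 0.370 and 0.515 in the other 4 samples. The scale of untrained sample 2 therefore stands apart from the rest, and a fixed threshold of 0.5 lies at a different place in its distribution. Because the rule used scores of these same cells, every gene contrast between them and the other cells is a description without a test.

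Promoters of Cst3, Ctss and C1qb, the 3 genes of the rule with the largest differences in untrained sample 2 (3.10, 2.78 and 2.66), are shown as the 250 bases before the RefSeq start in GRCm38.p6. Each is read 5′ to 3′ along the gene's strand. Capitals mark GAGGAA, the core letters of the site bound by PU.1, the transcription factor that directs the myeloid lineage. The windows are Cst3 at chr2:148875513-148875762 (minus strand), Ctss at chr3:95526536-95526785 (plus strand) and C1qb at chr4:136886201-136886450 (minus strand).
Cst3: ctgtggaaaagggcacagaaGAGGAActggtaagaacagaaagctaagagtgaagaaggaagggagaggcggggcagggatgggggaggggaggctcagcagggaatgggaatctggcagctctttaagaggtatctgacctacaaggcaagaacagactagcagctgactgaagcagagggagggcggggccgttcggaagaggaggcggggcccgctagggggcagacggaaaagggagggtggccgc
Ctss: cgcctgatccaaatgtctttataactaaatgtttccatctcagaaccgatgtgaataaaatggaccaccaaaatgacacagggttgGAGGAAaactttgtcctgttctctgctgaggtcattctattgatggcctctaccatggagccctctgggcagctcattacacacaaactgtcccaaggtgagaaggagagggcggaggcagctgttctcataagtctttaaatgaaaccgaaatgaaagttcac
C1qb: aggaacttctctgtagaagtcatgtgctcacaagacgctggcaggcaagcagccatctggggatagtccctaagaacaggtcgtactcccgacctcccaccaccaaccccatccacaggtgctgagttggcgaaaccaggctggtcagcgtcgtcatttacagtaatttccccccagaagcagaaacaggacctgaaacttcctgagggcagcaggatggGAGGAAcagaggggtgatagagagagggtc
The marked letters begin 230 bases before the start of Cst3, 164 before that of Ctss and 30 before that of C1qb. Searched on both strands (GAGGAA or TTCCTC) over windows that run from 250 bases before to 50 after a start, at least 1 window of 4 of the 5 marker genes with an entry held the letters, among them Apoe, and that of Ctsd held none. The same letters occurred in 28.3% of 32851 windows and in at least 1 window of 31.3% of 27025 genes in the table. They occurred for 7 of 22 matched genes (31.8%) among the 25 with the largest differences below, which is near the share over all genes. A match of letters is a description and does not show that a factor binds there.

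The cells were unevenly spread over the samples. They made up 43 of 190 cells in untrained sample 2 (22.6%, Wilson 17.3% to 29.1%), 9 of 144 in untrained sample 1 (6.25%, 3.32% to 11.5%), 5 of 66 in trained sample 1 (7.58%, 3.28% to 16.5%), 7 of 124 in trained sample 2 (5.65%, 2.76% to 11.2%) and 9 of 168 in trained sample 3 (5.36%, 2.84% to 9.87%). These intervals cover counting error alone. The share in untrained sample 2 was the highest, with an interval that lay above the highest bound of the other 4. That sample gave 58.9% (47.4% to 69.5%) of the high-scoring cells and 27.5% of all cells. When each gene was centred on its sample's median and divided by its sample's SD, 168 cells passed 0.5, where 73 had before. Of the 168, 26.8% came from untrained sample 2, close to its share of all cells. Dividing by the smaller SDs of the other 4 samples lifts their cells and tends to draw the shares together. The value therefore cannot show whether the excess in untrained sample 2 is one of scale.

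**Figure D1:**
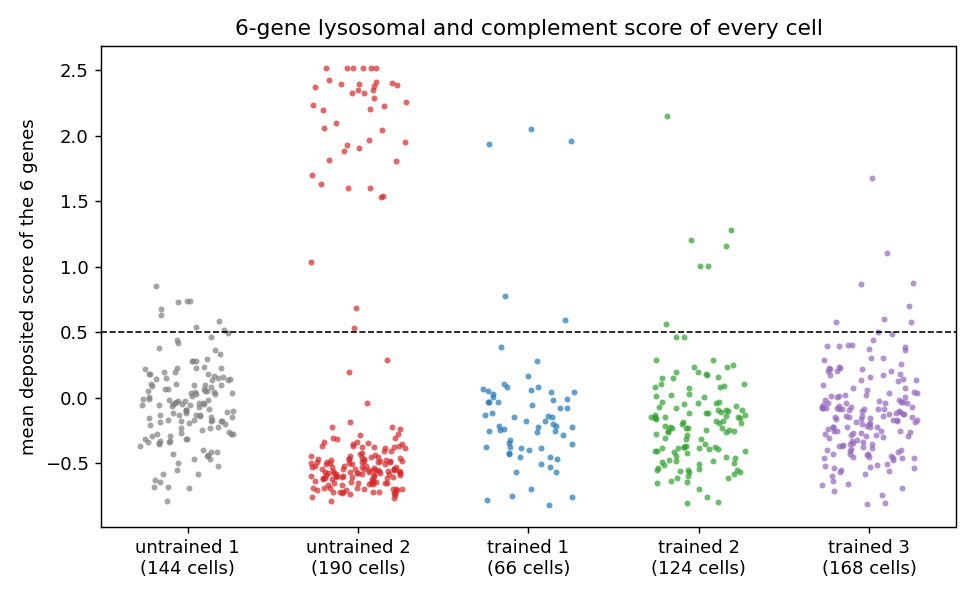
Mean deposited score of the 6 genes (vertical axis, score units) for each of the 692 cells, by sample, with the threshold of 0.5 as a dashed line and sideways spread for visibility. In untrained sample 2 the cells above the line sit in a separate group with a median of 2.23, whereas in untrained sample 1 no cell exceeds 0.854. Gene scores spread most in untrained sample 2 and least in untrained sample 1.

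How high the cells scored also differed between samples, whose scales differ as given above. The lowest, median and highest scores of the 43 cells of untrained sample 2 were 0.529, 2.23 and 2.52. Those of trained sample 1 were 0.594, 1.94 and 2.05, and those of trained sample 2 were 0.560, 1.16 and 2.15. The medians of these samples lay far above the threshold. In trained sample 3 the values were 0.505, 0.697 and 1.67, and in untrained sample 1 they were 0.517, 0.680 and 0.854, so most cells of both sat just past it. Between 0.25 and 1.5 untrained sample 2 had 4 cells, against 20 in untrained sample 1 and 4, 11 and 21 in trained samples 1, 2 and 3. Untrained sample 2 was thus split into a low and a high set with few cells between, while untrained sample 1 and trained sample 3 ran through the threshold without a gap. The 3 cells just below it scored 0.497 (untrained sample 1), 0.488 (trained sample 3) and 0.466 (trained sample 2). The 3 just above scored 0.505 (trained sample 3), 0.517 (untrained sample 1) and 0.529 (untrained sample 2).

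At stricter fixed thresholds a larger share of the cells came from that sample. Above 0.25 there were 105 cells, 41.9% of them from untrained sample 2. Above 0.75 there were 56 (73.2%), above 1.0 there were 52 (78.8%) and above 1.5 there were 45 (88.9%, Wilson 76.5% to 95.2%). Of the 45, 40 came from untrained sample 2, 3 from trained sample 1 and 1 each from trained samples 2 and 3. Untrained sample 1 had 0 cells above 1.0, and 0 of its 144 cells allows a share of up to 2.08%. These thresholds are fixed, whereas the median SD over genes was 0.728 in untrained sample 2 and between 0.370 and 0.515 in the other samples. A fixed threshold is harder to pass where scores spread less, and the part of scale in this rise was not tested.

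**Figure D2:**
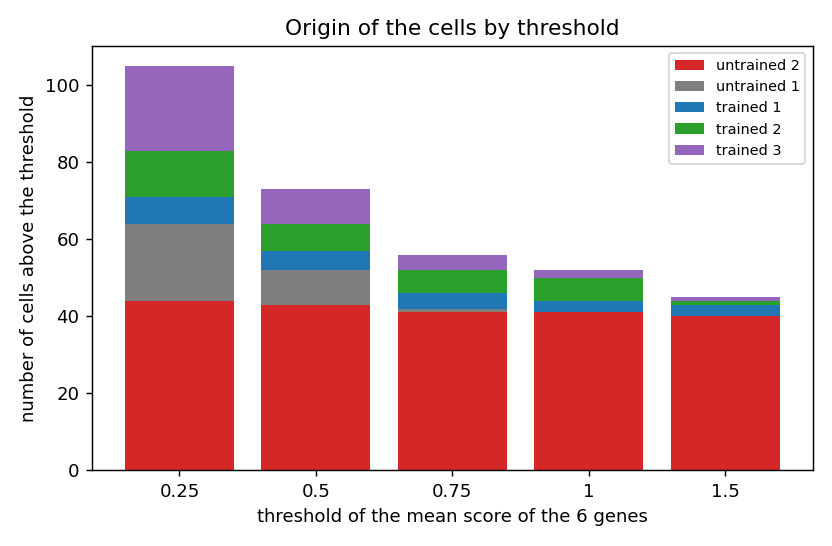
Number of cells (vertical axis) whose mean score of the 6 genes exceeds each of 5 thresholds (horizontal axis), stacked by sample. The part from untrained sample 2 stays between 40 and 44 cells at every threshold while that from the other 4 samples shrinks from 61 to 5. The thresholds are fixed, while gene scores spread most in untrained sample 2.

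Trained and untrained samples were compared for the share of these cells, since the study asked what training altered among cells sorted from the injured hemisphere. The mean share of trained samples was 6.19% ± 1.21 (SD, n = 3). That of untrained samples was 14.4% ± 11.6 (SD, n = 2), and trained minus untrained was -8.25 percentage points (two-sided exact permutation p = 0.2, where the 10 possible splits allow no p below 0.1). With each gene centred and scaled per sample, which tends to draw the shares together, the difference was -2.38 points (exact permutation p = 0.6). Without untrained sample 2 it was -0.057 points, and without untrained sample 1 it was -16.4. The 2 untrained samples lay on both sides of trained sample 1, at 6.25% and 22.6%, so the groups overlapped at the threshold of 0.5. Above 0.25 both untrained shares, 20 of 144 and 44 of 190 cells, lay above the trained ones. Trained samples 1, 2 and 3 had 7 of 66, 12 of 124 and 22 of 168 there. The difference was -7.40 points above 0.25 (exact permutation p = 0.1, the smallest possible) and -7.26 points above 1.0 (exact permutation p = 0.5).

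The genes of the rule are given first, as levels and without a test because they chose the cells. Cst3, on chromosome 2, had mean scores of 2.46 ± 0.215 (SD over cells) in the high-scoring and -0.642 ± 0.233 in the other cells of untrained sample 2. Of the 43 cells 39 lay at the ceiling of 2.52, and the lowest was 1.58, above the highest other cell at 0.117. This was the one gene of the 6 whose scores did not overlap between the cells and the rest of that sample at all. The high-scoring cells of trained samples 1, 2 and 3 had Cst3 means of 1.83, 1.73 and 1.10, and those of untrained sample 1 of 0.566, with other cells between -0.280 and -0.105.

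Among the proteases, cathepsin S (Ctss, chromosome 3), which trims the invariant chain in antigen-presenting cells, had a mean of 2.24 ± 0.617 in the 43 cells, 31 of them at the ceiling. The aspartic protease cathepsin D (Ctsd, chromosome 7) had a mean of 2.05 ± 0.838, with 29 at the ceiling, and the cysteine protease cathepsin B (Ctsb, chromosome 14) one of 1.87 ± 0.786, with 14. In the other cells of the sample these 3 genes had means between -0.544 and -0.489. The order of the samples held for Ctss, with means of 0.690 in untrained sample 1 and 1.65, 1.49 and 0.882 in trained samples 1, 2 and 3. For Ctsd and Ctsb untrained sample 1 came nearer the trained samples, with 0.887 and 0.912 against 0.630 and 0.881 in trained sample 3. Its 9 cells were highest on the cathepsins, with means of 0.466 for C1qb and 0.483 for Tyrobp.

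C1qb (chromosome 4), which codes for the B chain of C1q, had a mean of 2.15 ± 0.616 in the 43 cells, with 27 at the ceiling and 42 above 0, where 8 of the 147 other cells also lay. Its means were 1.44, 1.24 and 0.996 in the high-scoring cells of trained samples 1, 2 and 3. Tyrobp (chromosome 7) was the least uniform of the 6, with a mean of 1.55 ± 1.00, a lowest value of -0.475 and 38 cells above 0. It reached 0.998, 0.544 and 0.498 in the trained samples. A total of 6 cells of untrained sample 2 had all 6 genes at the ceiling, where further differences between cells cannot be seen.

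The deposited means of whole samples rested on these cells to different degrees. With all its cells untrained sample 2 had mean scores of 0.060 for Cst3, 0.085 for Ctss, 0.091 for C1qb and -0.108 for Apoe, and without the 43 cells these were -0.642, -0.544, -0.512 and -0.638. Cst3 moved from -0.063 to -0.105 in untrained sample 1 without its 9 cells, and from -0.120 to -0.280, -0.149 to -0.261 and -0.073 to -0.139 in trained samples 1, 2 and 3. With all cells untrained sample 2 was the highest of the 5 samples for Cst3, and without the high-scoring cells it was the lowest. For the 1632 rows of that sample whose mean is 0 with these cells included, a level above 0 in the 43 cells goes by arithmetic with a level below 0 in the rest. Cst3, Ctss, C1qb and Apoe are not among these rows, but their means with all cells, from -0.108 to 0.091, also lie near 0. The same arithmetic therefore nearly holds for them, and it bears on the place of Cst3 without the high-scoring cells.

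Genes beyond the 6 were then described by the difference of mean scores between high-scoring and other cells of the same sample. Of 2920 such genes, 186 (6.37%) were higher by more than 0.5 and 75 (2.57%) lower by more than 0.5 in untrained sample 2. Trained sample 1 had 172 (5.89%) and 18 (0.616%), trained sample 2 had 83 (2.84%) and 13 (0.445%), trained sample 3 had 49 (1.68%) and 12 (0.411%), and untrained sample 1 had 47 (1.61%) and 9 (0.308%). The rule used this contrast, so these shares are the background for the counts below and carry no call. The median SD over genes was 0.728 in untrained sample 2, 0.478, 0.515 and 0.429 in trained samples 1, 2 and 3 and 0.370 in untrained sample 1. A fixed 0.5 is a smaller step where scores spread more. Counts and differences of different samples, here and below, therefore also depend on scale, whose part was not tested. The count depends on how it is taken: against other cells with a positive T cell marker score, 433 genes passed 0.5 either way in untrained sample 2, of which 176 were among its 261, and with the 5 samples weighted equally 76 did.

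The 25 genes with the largest positive difference in untrained sample 2 ran from Itm2b (2.35) to Fos (1.26). All 25 were also higher in the high-scoring cells of each of the other 4 samples, with medians of 1.08, 0.693 and 0.510 in trained samples 1, 2 and 3 and 0.450 in untrained sample 1. Those past 0.5 numbered 25, 19, 15 and 11 in the same order. Over all 2920 genes the median difference was 0.037 in untrained sample 2, 0.039, 0.020 and 0.072 in the trained samples and 0.123 in untrained sample 1. Of these genes 57.3% were higher in untrained sample 2, 56.7%, 54.1% and 68.0% in trained samples 1, 2 and 3 and 81.6% in untrained sample 1. Those shares are the background for counts of genes higher or lower below.

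**Figure D3:**
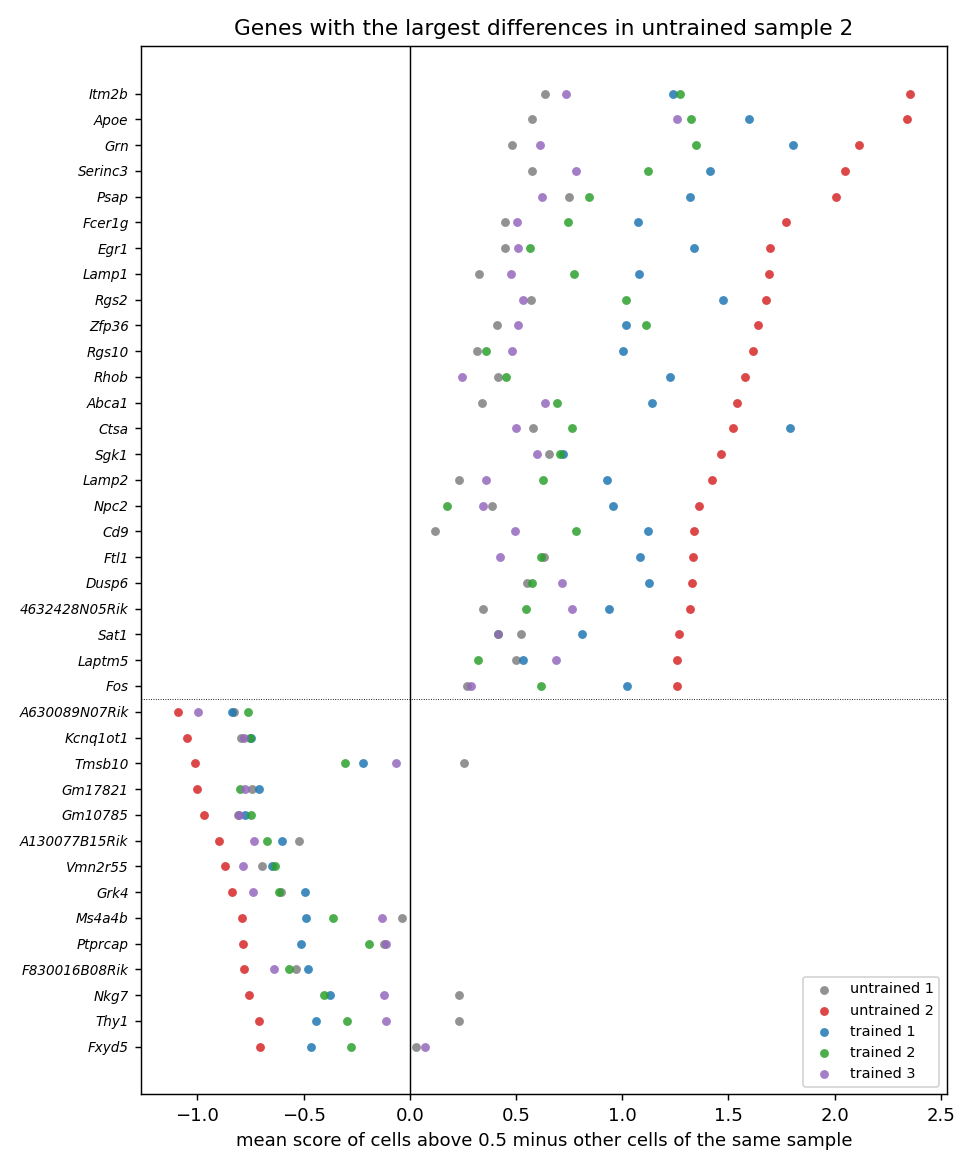
Difference of mean score between cells above 0.5 and the other cells of the same sample (horizontal axis, score units) for 24 of the 25 genes with the largest positive and 14 of the 15 with the most negative difference in untrained sample 2, 1 point per sample. Points of untrained sample 2 (red) lie farthest from 0 for 23 of the 24 upper genes, Ctsa being higher in trained sample 1. The genes were chosen in untrained sample 2, where scores also spread most.

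Apoe, on chromosome 7 and no part of the rule, had mean scores of 1.70 ± 1.24 in the 43 cells and -0.638 ± 0.272 in the other cells of untrained sample 2. Its difference there was 2.34, with 35 of 43 cells above 0 and 28 at the ceiling, against 4 of 147 other cells above 0. Means in high-scoring cells were 1.24, 0.962 and 0.945 in trained samples 1, 2 and 3 and 0.320 in untrained sample 1. The gene divided the 43 cells, since 8 of them lay at or below 0 and the lowest at -0.679. Itm2b, which codes for the membrane protein BRI2, was more uniform: all 43 cells lay above 0, the lowest at 0.708, with a mean of 1.90 ± 0.675 against -0.452 in the others.

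Lysosomal genes outside the rule filled much of the upper end. Progranulin (Grn), a secreted protein that is processed in lysosomes, differed by 2.11 in untrained sample 2 and by 1.81, 1.35 and 0.614 in trained samples 1, 2 and 3. Prosaposin (Psap), the precursor of the saposins that help degrade sphingolipids, differed by 2.01, with 23 of 43 cells at the ceiling. The membrane proteins Lamp1 (1.69) and Lamp2 (1.42), the cholesterol-binding Npc2 (1.36), the protective protein cathepsin A (Ctsa, 1.52) and Laptm5 (1.26) followed. Ctsa differed by 1.79 in trained sample 1, more than in untrained sample 2, and the order of the other samples varied from gene to gene. Of the 16 measured genes of the lysosomal list 4 are genes of the rule and are left out of the counts. The list counts Itm2b, described above, which gave the largest difference beyond the rule in untrained sample 2 (2.35) and trained sample 3 (0.735). Of the other 12, 10 passed 0.5 in untrained sample 2, 10, 7 and 5 in trained samples 1, 2 and 3 and 4 in untrained sample 1. All 12 were higher in each sample, where 54.1% to 81.6% of all 2920 genes were. Their medians were 1.39 in untrained sample 2, 0.942, 0.620 and 0.417 in the trained samples and 0.395 in untrained sample 1.

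Genes of immune signalling and of lipid and iron handling were the next group. Fcer1g, the Fc receptor gamma chain that works as an adaptor like Tyrobp, differed by 1.77 in untrained sample 2, by 1.08, 0.746 and 0.507 in the trained samples and by 0.450 in untrained sample 1. Rgs10 (1.62) and Rgs2 (1.68) code for regulators of G protein signalling, Abca1 (1.54) for a cholesterol exporter, Cd9 (1.34) for a tetraspanin and Ftl1 (1.34) for the ferritin light chain. Of 8 measured genes of lipid handling and damage-associated microglia, 8 were higher in 4 samples and 7 in trained sample 3, and 6 passed 0.5 in untrained sample 2. Maf, a transcription factor of macrophages that some T cells also use, was the 1 measured gene of 13 myeloid transcription factors and differed by 1.12. Also among the 25 were Serinc3 (2.05), 4632428N05Rik (1.32), the gene of the checkpoint protein VISTA, and Sat1 (1.27), which codes for an enzyme of polyamine breakdown.

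Immediate-early genes, which cells switch on within minutes of stimulation or handling, were also high. Egr1 differed by 1.70, Zfp36, whose product destabilises cytokine messages, by 1.64, Rhob by 1.58 and Fos by 1.26 in untrained sample 2. Dusp6, a phosphatase acting on ERK, differed by 1.33 and the kinase gene Sgk1 by 1.46. Of 12 measured genes of the list 8 passed 0.5 in untrained sample 2 and 9, 4 and 3 in trained samples 1, 2 and 3, with 1 in untrained sample 1. List medians were 1.03 in untrained sample 2, 0.877, 0.436 and 0.278 in trained samples 1, 2 and 3 and 0.405 in untrained sample 1.

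The finer identity of the cells could not be read from the table. Of 14 microglia markers 1 was measured, Selplg, which leukocytes in general also carry and which differed by 0.95 in untrained sample 2. Of 16 macrophage or monocyte markers the 3 measured ones, Ms4a6c, Ccr2 and Plac8, had differences of -0.191, -0.111 and -0.206 there. Lists for dendritic cells, B cells, astrocytes, neurons and class II antigen presentation had 0 measured members, and of 11 complement genes C1qb alone was measured. Tyrobp and Fcer1g are also natural killer cell genes, but Nkg7 and Klrk1 of that list had differences of -0.756 and -0.251 in untrained sample 2. The label myeloid-like is therefore used for the marker pattern alone, and no narrower name is given.

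T cell markers were low in the cells that scored highest. Over the 13 measured markers of 16, the T cell score of the 43 cells ran from -0.535 through a median of -0.408 to -0.117, and 0 of 43 lay above 0, which allows a share of up to 6.98%. Among the other 147 cells of that sample it ran from -0.550 through -0.041 to 1.54, and 73 (49.7%) lay above 0. The 43 cells therefore occupied the lower part of the range, which many other cells shared. Each of the 13 markers was lower in the 43 cells, 6 of them by more than 0.5, with a median difference of -0.436.

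Single T cell genes in untrained sample 2 showed the same pattern. Thy1, a surface glycoprotein of T cells, had a mean of -0.550 in the 43 and 0.161 in the other cells, with 1 of 43 against 68 of 147 above 0. The kinase gene Lck differed by -0.653, the adaptor gene Lat by -0.641, and the CD3 chain genes Cd3d and Cd3g by -0.540 and -0.516. Cd3e, which codes for the chain that the sorting antibody binds, differed least of the CD3 genes, by -0.404, with 9 of 43 against 56 of 147 cells above 0. The coreceptor genes Cd8a, Cd8b1 and Cd4 differed by -0.504, -0.365 and -0.249.

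In the other samples the T cell score divided the high-scoring cells. Trained sample 1 had a median of -0.408 with 1 of 5 cells above 0, and trained sample 2 one of -0.114 with 2 of 7 above 0. Trained sample 3 had a median of 0.050 with 5 of 9 above 0, and untrained sample 1 one of 0.119 with 7 of 9 above 0. Other cells of these 4 samples had medians between 0.031 and 0.121, so the high-scoring cells of untrained sample 1 were no lower than the rest of their sample. For these 9 cells the label myeloid-like is not borne out, since their T cell score was not low. Of the 13 T cell markers 10 had higher means than in other cells, near the 81.6% of all 2920 genes that were higher there. In trained sample 3 the T cell score was also not low, with a median of 0.050 against 0.031 in its other cells. Of its 9 high-scoring cells 5 lay above 0, against 52.2% of its other cells, and 7 had a 6-gene score between 0.5 and 1.0. Their mean T cell score was slightly lower (-0.007 against 0.036), with 8 of the 13 markers lower. The label is not borne out for them as a group either. The cells of both samples are called high-scoring cells here for that reason.

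**Figure D4:**
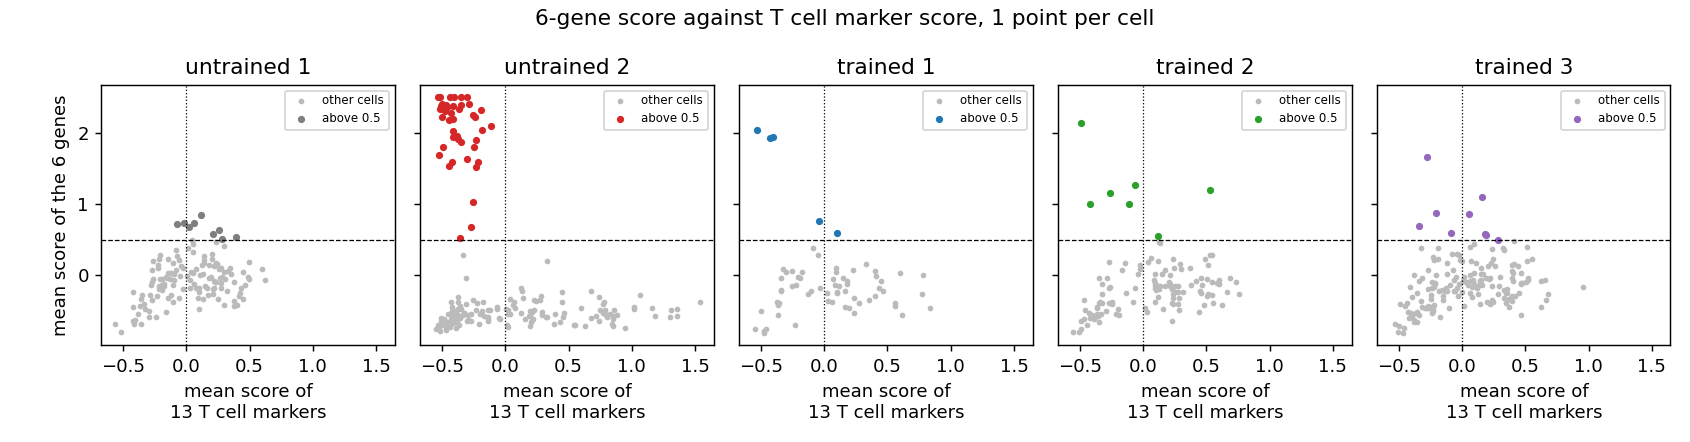
Mean score of the 6 genes (vertical axis) against the mean score of the 13 measured T cell markers (horizontal axis), 1 point per cell and 1 panel per sample, with lines at 0.5 and 0. Cells above 1.5 all lie left of 0 on the T cell axis, while 7 of the 9 high-scoring cells of untrained sample 1 lie right of it.

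Sorted by their 6-gene score rather than by sample, the 73 cells fell into different kinds. Of the 45 cells above 1.5, 0 had a positive T cell score, the median was -0.411 and Apoe had a median at the ceiling of 2.52. A share of up to 6.67% is allowed if cells count as independent, but 40 of the 45 came from untrained sample 2. The 7 cells between 1.0 and 1.5 had 2 with a positive T cell score and an Apoe median of 1.59. The 21 cells between 0.5 and 1.0 had 13 with a positive T cell score, a T cell median of 0.057 and an Apoe median of 0.162. Of these 21, 9 came from untrained sample 1 and 7 from trained sample 3. Low T cell scores with high Apoe were thus also found in the 5 cells above 1.5 outside untrained sample 2, with Apoe at 1.72 (median of 3 cells) in trained sample 1 and at 1.84 and 2.32 in the 1 cell each of trained samples 2 and 3.

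Coreceptor scores were also used to sort the cells into gates. A cell was CD8-gated if its Cd8a and Cd8b1 scores averaged more than 0 while its Cd4 score did not exceed 0, and CD4-gated in the opposite case. By this measure 37 of the 43 cells of untrained sample 2 passed neither gate, 5 were CD4-gated and 1 CD8-gated. Of all 147 other cells in that sample 87 passed neither. Over the other 4 samples 12 of 30 high-scoring cells (40.0%) and 194 of 472 other cells (41.1%) passed neither gate, shares that lay close together. In trained sample 1, where T cell scores were low, 1 of 5 high-scoring cells passed neither, and in untrained sample 1, where they were not, 4 of 9 did.

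At the lower end of the contrast stood T cell genes and noncoding transcripts. The actin-binding Tmsb10 (-1.01), the membrane protein genes Ms4a4b (-0.79) and Fxyd5 (-0.70), the CD45-associated Ptprcap (-0.78) and the cytotoxic granule gene Nkg7 (-0.76) were among the 15 lowest genes of untrained sample 2. All 5 are abundant in lymphocytes, and in untrained sample 1 Tmsb10 and Nkg7 differed by 0.26 and 0.23, in the other direction. Of 10 measured cytotoxic genes 9 were lower in the 43 cells and 3 by more than 0.5. Against other cells with a positive T cell score the differences were larger, at -1.73 for Tmsb10, -1.44 for Ptprcap and -1.41 for Nkg7.

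The noncoding RNAs A630089N07Rik and Kcnq1ot1 differed by -1.09 and -1.05 in untrained sample 2, and by -0.998 to -0.760 and -0.797 to -0.745 in the other 4 samples. Of the 147 other cells, 67 scored above 0 for each. Set against other cells with a positive T cell score, the differences were 0.094 and 0.099, so the sign turned, as it did for Gm17821, Gm10785, A130077B15Rik, Vmn2r55, Grk4 and F830016B08Rik. The low level of these transcripts thus sets the 43 cells apart from other cells with low T cell scores and not from those with positive ones. Malat1, a nuclear noncoding RNA, was higher by 0.898.

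Ribosomal, mitochondrial and antigen presentation genes gave smaller differences. Of 69 cytosolic ribosomal protein genes 64 were lower in the 43 cells, 9 by more than 0.5, with a median of -0.305. In the 9 cells of untrained sample 1, 68 of 69 were higher, with a median of 0.224. Of all 2920 genes 57.3% were higher in untrained sample 2. In untrained sample 1 81.6% were, with a median of 0.123. Trained samples 1, 2 and 3 had medians of -0.078, -0.009 and 0.011. Mitochondrially encoded genes had medians between 0.052 and 0.222 over the 5 samples, with mtCytb of respiratory complex III at 0.673 in untrained sample 2. Among 10 class I antigen presentation genes B2m, the light chain of class I molecules, differed by 0.716 there and the others by less than 0.5. Of 20 interferon-stimulated genes Lgals3bp passed 0.5 upward (0.920) and Ly6a downward (-0.585).

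**Figure D5:**
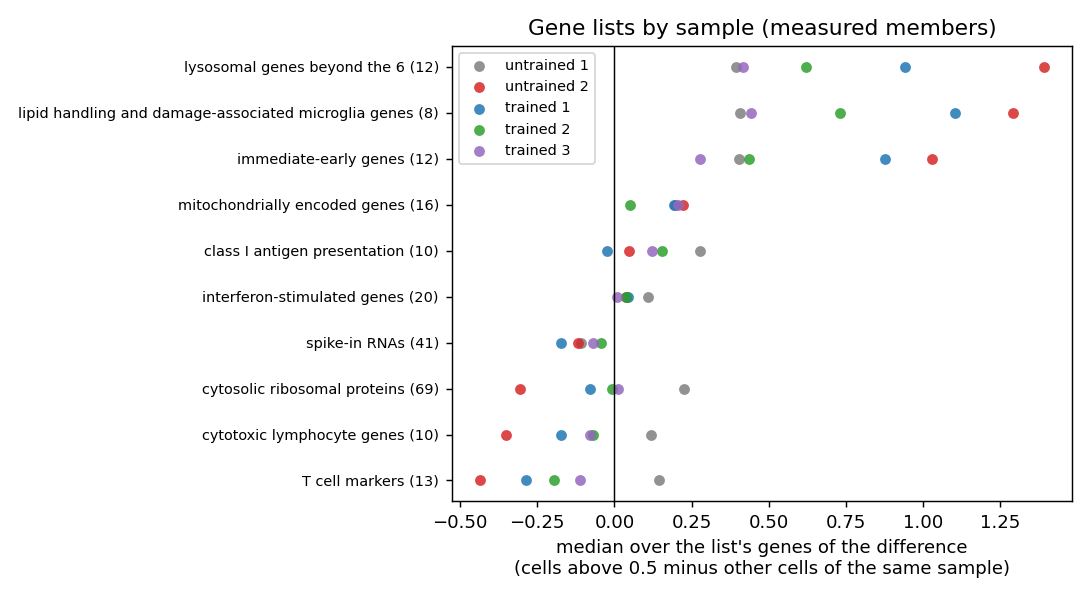
Median over the measured genes of each list of the difference between cells above 0.5 and the other cells (horizontal axis, score units), 1 point per sample, with the number of measured genes in brackets. Lysosomal genes, without those of the rule and with Itm2b counted, lie to the right in all 5 samples. T cell markers lie left of 0 in 4 samples and at 0.144 in untrained sample 1.

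Spike-in RNAs are artificial transcripts added to each reaction as a reference. Of 41 spike-ins 33 were lower in the 43 cells, with a median difference of -0.119, where 57.3% of all 2920 genes were higher. The medians were -0.107 in untrained sample 1 and -0.175, -0.045 and -0.070 in trained samples 1, 2 and 3. Their part in the gene differences was not tested.

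Within the 43 cells the genes of response varied most. Jun had the largest SD over cells of the 2926 genes (1.35), with 23 cells above 0, and Dusp6 (1.30), Sgk1 (1.29), Fos (1.28) and Apoe (1.24) were also among the 10 largest. Over all genes the median SD was 0.724 in the 43 and 0.707 in the other cells. The SD was larger in the 43 for 1538 of the 2926 genes.

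Correlations across the 43 cells describe how these programs went together in cells that share a sample, a normalisation and a ceiling. Apoe had r = 0.460 with ferritin heavy chain (Fth1), 0.428 with Ftl1 and 0.572 with the mean of ribosomal protein genes. Its r with the mean of immediate-early genes was -0.203. The immediate-early mean had r = 0.574 with lysosomal genes beyond the 6 and -0.621 with T cell markers, against 0.346 and 0.501 in the 147 other cells. Depth per cell is not known.

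Across all 190 cells of untrained sample 2 the genes most like the 6-gene score were Itm2b (r = 0.904), Apoe (0.858), Grn (0.856), Psap (0.842), Serinc3 (0.822), Egr1 (0.794), Lamp1 and Rgs10 (both 0.766), then Ctsa, and last Rhob (0.731). In trained sample 1 the same 10 genes had r between 0.639 for Serinc3 and 0.867 for Egr1. The values for Apoe in the other samples were 0.539 in untrained sample 1, 0.579 in trained sample 2 and 0.639 in trained sample 3. The same score split these cells, so the r values largely restate the contrasts above and are no further support.

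Whole profiles were compared as a description, since the reference profiles are means of cells split by the 6-gene score. Over the 2920 other genes each cell was correlated with the mean profile of the 43 cells and with that of the other cells of untrained sample 2, each cell being left out of its own mean. All 43 cells were nearer the first, which the choice of cells favours, as were 5 of 5 high-scoring cells of trained sample 1, 6 of 7 of trained sample 2, 9 of 9 of trained sample 3 and 9 of 9 of untrained sample 1. Trained sample 1 had the highest median r, 0.440 over 5 cells (0.072 to 0.569), against 0.258 within the 43 themselves. Untrained sample 1 had the lowest, at 0.115. The median SD over genes was 0.728 in untrained sample 2 and 0.478 in trained sample 1, but an overall scale does not alter r. The samples also differ in the centre of their genes: 1632 rows had a mean of 0 in untrained sample 2 and 0 rows in each other sample. What this does to r was not tested, so r values of different samples are not ranked as degrees of likeness. Of other cells 7 of 147 in untrained sample 2 were nearer the profile of the 43, as were 38 of 135 in untrained sample 1 and 13 of 61, 14 of 117 and 35 of 159 in trained samples 1, 2 and 3, so outside untrained sample 2 the nearer profile did not single out the cells above 0.5.

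Each cell's name holds a number, which was at most 384. High-scoring cells of untrained sample 2 carried numbers from 31 to 335. They made up 1 of 33 cells with numbers 1 to 96 (3.03%, Wilson 0.537% to 15.3%), 18 of 59 from 97 to 192 (30.5%), 16 of 52 from 193 to 288 (30.8%) and 8 of 46 from 289 to 384 (17.4%). The cells were thus scarce among the lowest numbers and spread over the other 3 ranges. The labels do not say whether the number is a well. Numbers recurred between samples, 221 of 331 of them in 2 or more, and of the 30 high-scoring cells elsewhere 6 (20.0%) shared a number with one of the 43, as did 59 of all 502 cells of those samples (11.8%).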

How the data were processed

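Per the labels, single CD3+ cells were sorted from brain into 384-well plates and profiled by SORT-seq. The submitters' processing notes name Cell Ranger without a version. The genome build, the aligner and how values were normalised or integrated: not given in the sources used here. The table the authors deposited, called a count matrix, holds scores by its values: 2926 mouse genes and 41 spike-ins by 692 cells, from -2.12 to 3.74, with 72.7% below 0 and 0 whole numbers. By their values the scores of untrained sample 2 look centred per gene and clipped. There 1632 rows have a mean of 0, as 0 rows do in each other sample. Its ceiling of 2.52 equals the square root of its 190 cells divided by 30, so it follows from the cell number of that sample. How the other samples were put on this scale, and whether they were batch-integrated, is not given. The table holds no counts, so depth per sample is unknown and gives no precision. A second table repeats 384 of the columns (largest difference 5.0e-10) under barcode names and was not used.

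Cells were assigned to samples by the number in their names, and samples to groups by the labelled treatment. Replicate numbers are in accession order. High-scoring and other cells were compared within a sample by mean scores, with 0.5 as the size given for counts of genes, and no gene was tested, because the rule used these scores. The share of cells was compared by a two-sided exact permutation test over 10 splits. The p-value measures the spread between samples, which may be technical. Shares have 95% Wilson intervals, and a count of 0 allows 3 cells of the total, both of which treat cells as independent. Doublets were not called, for want of counts. Genes named are the 6 of the rule and Apoe, the 25 highest and 15 lowest beyond the 6 in untrained sample 2, up to 4 members per list, every measured T cell, coreceptor, microglia and macrophage marker, and the 10 most like the 6-gene score. Jun and Fth1 were chosen after their values were seen. Some genes that this rule takes are not reported here. The members and lists were chosen with earlier results of these data known. A plan for molecule counts did not apply to scores. Scripts used Python 3.11.15, numpy 2.4.6, pandas 2.3.3 and scipy 1.17.1, and were tested on simulated data. Promoters come from RefSeq (GRCm38.p6). Alternatives were other thresholds, scores without 1 gene or with Apoe, per-sample scaling, the median of the genes, other weightings of cells and leaving out each sample.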

Additional observations from a re-analysis of the deposited data

How the results depend on the processing

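The number of cells was 73, stayed between 66 and 81 when a gene was left out of the score or Apoe added, and was 45 above 1.5. The share from one sample (58.9%) was 41.9%, 73.2%, 78.8% and 88.9% at thresholds of 0.25, 0.75, 1.0 and 1.5, 26.8% with each gene centred and scaled per sample, and 30.0% to 67.2% with each sample left out, the lowest without untrained sample 2. The share of cells in trained minus untrained samples (-8.25 points) was lower in trained samples in each setting run, at -7.40 (threshold 0.25), -7.26 (1.0), -7.61 (median of the 6 genes) and -2.38 (scaled per sample), and from -16.4 to -0.057 with each sample left out. Of 2920 genes 261 lay beyond 0.5 in untrained sample 2. The count was 76 with samples weighted equally, 117 with all cells pooled, 514 with differences divided by the SD of other cells, and 433 against other cells with a positive T cell score. The last 2 choices shared 255 and 176 genes with the 261. The T cell score difference in untrained sample 2 (-0.367, of medians) was -0.115 with the median over markers.

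Against other cells with a positive T cell score, an alternative chosen after seeing the data, 9 of 96 named genes reversed: A630089N07Rik (0.094), Kcnq1ot1 (0.099), Gm17821 (0.064), Gm10785 (0.101), A130077B15Rik (0.033), Vmn2r55 (0.024), Grk4 (0.053), F830016B08Rik (0.017) and Cxcr2 (0.00033). The set of other cells is what differs there. For the other settings the cause was not tested. At a threshold of 1.0, 41 of the 43 cells of untrained sample 2 remained, so this setting could hardly move the values. All 96 named genes lay within 1 SD between samples of their values, a spread that includes the differences in scale. No paired analysis was possible because replicate numbers are in accession order and pair no samples. Depth is unknown, and the ceiling of 2.52 in untrained sample 2 limits differences among the highest cells.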
